A study of Mus musculus with 18 samples.

Results

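The S-phase isthmus progenitors were the 339 cells of cluster 3 in the authors' annotation of mouse stomach corpus cells. They were 339 of the 3993 corpus cells kept in dataset 2 and of the 4484 cells kept in the whole series, and 339 of the 1285 cells in the 5 isthmus clusters (3, 5, 6, 9 and 11). The cells came from 10-week-old male wild-type C57BL/6J mice and carried no treatment or engineered allele. They were pooled as pool K (179 cells) and pool T (160 cells), each made from 3 mice by a different operator, and each pool was sorted as live Hoechst-positive single cells into 6 plates of 384 wells. Mice within a pool cannot be separated in these data, so the plates of a pool are technical replicates of 1 preparation. Expression was measured by Quartz-Seq2, a plate-based method that counts RNA molecules by their unique molecular identifiers (UMIs).

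The isthmus is the band of the gastric gland where progenitor cells divide and from which pit cells move towards the lumen, neck cells towards the base and parietal cells in both directions. A dividing cell first licenses its replication origins by loading the MCM helicase, then, in S phase, fires them, copies the DNA with polymerases that ride on the PCNA clamp, and rebuilds chromatin behind the fork. Mitotic genes are made later, in G2 and M. Much of the S-phase programme is known to depend on E2F transcription factors, and much of the mitotic programme on complexes that bind the cell cycle genes homology region (CHR) and the CCAAT box.

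Pcna, Stmn1 and Hmgb2, the markers given for this cluster, were all measured in it, but only *Pcna* set it near the top of the isthmus. Levels between clusters are given in pools K and T, as CPM, the UMIs of a gene scaled to the same total in every cluster and pool. *Pcna* stood at 456 and 428 CPM in cluster 3, below the 595 and 562 of cluster 6 and above the 114 and 95.6 of cluster 11. *Stmn1*, which encodes a microtubule-destabilising protein, was at 28.7 and 30 CPM, against 98.5 and 93.6 in cluster 6 and 76.0 and 70.5 in cluster 5. *Hmgb2*, a chromatin protein of proliferating cells, was at 102 and 100 CPM, against 548 and 583 in cluster 5. Both lay below clusters 5, 6 and 9, and both were above cluster 11 and the mean of the non-isthmus epithelial clusters, where *Hmgb2* was at 19.0 and 19.2 CPM. Of 14 markers of immune, stromal, endothelial, endocrine and tuft cells, 10 had at most 3 UMIs in either pool of cluster 3, among them *Ptprc* and *Pecam1*. The endocrine genes *Ghrl* (37.6 and 29.0 CPM), *Sst* (13.7 and 16.7 CPM) and *Chga* (11.2 and 10.6 CPM) were the others of any size. The summed level of all 14 markers was 63.9 and 57.6 CPM in cluster 3 and ranged from 36.0 to 113 CPM in the other isthmus clusters.

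All 339 cells were called S by the authors' scores, and cluster 3 held 58.1% of the 583 cells called S in dataset 2. Cluster 6 held 128 more, cluster 11 19, cluster 9 3 and cluster 5 none. The median S score was 0.375 in pool K and 0.363 in pool T, and the median G2/M score was -0.0820 and -0.0756. Cluster 6 scored higher on both (S 0.552 and 0.522, G2/M 0.510 and 0.554), cluster 5 was high on G2/M alone (0.806 and 0.837), and cluster 11 was low on both. The scores and the clusters were made from the same expression values, so these positions describe the cells and test nothing. The wells of every plate reuse the same 384 barcodes, so the 339 cells carried 227 different ones, 89 of them in more than 1 cell. The plates held 10540256 to 12850942 UMIs each, and the cells of cluster 3 summed to 6309202 (K) and 5607841 (T). By plate, the median cell of cluster 3 held 29591 to 36666 UMIs, which was below cluster 5 and below cluster 6 in 12 of 12 plates (median ratios 0.658 and 0.749) and above clusters 9 and 11 in 11 of 12. Its mitochondrial share, 4.69% in the median plate, was above clusters 5 and 6 in 12 of 12 plates (3.91% and 3.95%). Whether RNA content or mitochondrial share had a part in the differences between clusters was not tested.

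**Figure D1:**
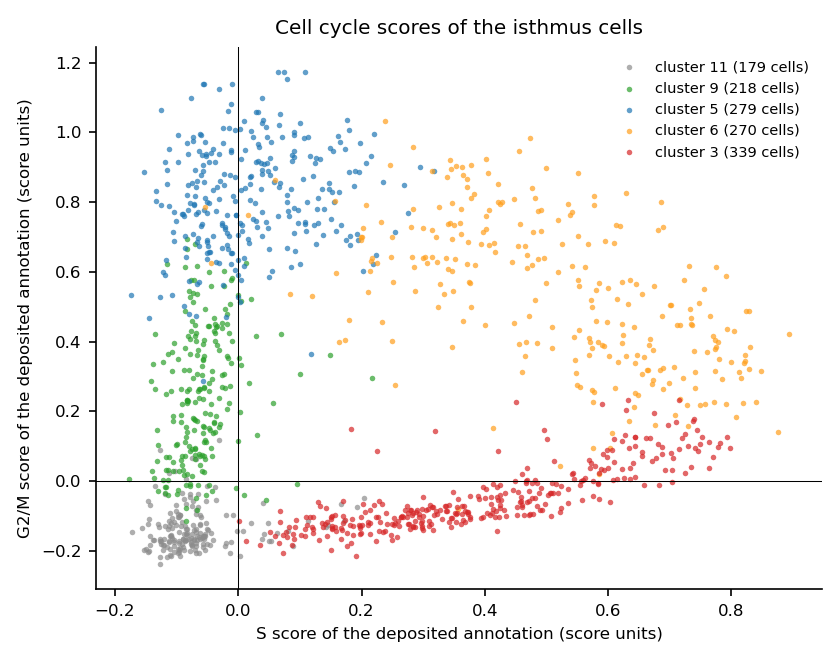
Each point is 1 cell of the 5 isthmus clusters, with the S score on the x axis and the G2/M score on the y axis (both unitless scores given by the authors) and the cluster shown by colour. The 339 cells of cluster 3 lie at positive S scores (medians 0.375 and 0.363) with G2/M scores near or below 0, to the left of and below cluster 6.

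The 95 genes of DNA replication, in lists for licensing, fork start, polymerases, nucleotide supply, chromatin assembly and fork repair, were mostly higher in cluster 3 than in the other isthmus clusters. A gene was called higher or lower when its level differed by at least 1 on the log2 scale (2-fold) in both pools, and no p-value is given because the clusters were made from these genes. Against the other 4 isthmus clusters, averaged on the log2 scale, 61 of the 95 were higher and none lower (median log2 difference 1.36), where 1.66% of the 12922 genes tested were called higher and 1.15% lower (median over all genes -0.0094). Against cluster 11 81 were higher (median 2.44, 3.99% of all genes), against cluster 9 74 (2.21, 4.35%), and against cluster 5 52 (1.21, 2.62%). Against cluster 5 *Dbf4*, *Fanci* and *Fancd2* were lower, where 2.79% of all genes were. Against cluster 6 the picture turned, with *Ung* alone higher (0.658% of all genes), 11 genes lower (2.32% of all genes) and a median of -0.387. Of the 95, 21 were highest of the isthmus clusters in cluster 3 in both pools and 65 in cluster 6.

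Origin licensing had the highest median difference from the other isthmus clusters of the 6 lists. Of 15 licensing genes 10 were higher than in the other isthmus clusters averaged (median 2.14), and none was called higher or lower than in cluster 6 (median 0.073). By level, 8 of the 15 (*Orc1*, *Cdc6*, *Cdt1* and *Mcm2* to *Mcm6*) were highest in cluster 3 of all isthmus clusters in both pools. *Cdt1*, which loads the MCM helicase onto origins and is destroyed once S phase starts, was at 149 and 148 CPM in cluster 3. It was at 97.0 and 87.8 CPM in cluster 6, 20.5 and 16.2 in cluster 11, 4.49 and 13.8 in cluster 9, and 2.71 and 4.52 in cluster 5. The order from cluster 3 to cluster 6 to cluster 11 was thus the same in both pools, and cluster 5 was the lowest in both. *Cdc6*, the partner of CDT1 in loading, was at 72.7 and 68.8 CPM against 56.5 and 58.3 in cluster 6 and 9.98 and 8.92 in cluster 5. *Mcm4*, a helicase subunit, was at 196 and 190 CPM against 115 and 130 in cluster 6 and 15.8 and 18.3 in cluster 5. *Mcm6* was the most abundant subunit transcript by UMIs, at 370 and 344 CPM against 317 and 301 in cluster 6. *Gmnn*, which encodes the CDT1 inhibitor geminin, was not among the higher genes, at 98.3 and 109 CPM against 131 and 133 in cluster 6. *Orc3*, *Orc4* and *Orc5*, origin recognition subunits, were called neither higher nor lower in any of the 6 comparisons. Over the plates, on a scale set over the isthmus plates, *Mcm4* ran from 190 to 249 CPM in pool K and from 184 to 252 CPM in pool T, so the pools overlapped almost fully.

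The genes that fire origins and drive the fork were higher than in most other isthmus clusters and mostly not called against cluster 6. Of 15 fork start genes 12 were higher than in the other isthmus clusters averaged (median 1.41), 14 than in cluster 11 and 5 than in cluster 5, while against cluster 6 none was higher, 1 was lower and 14 were neither (median -0.55). *Timeless*, a fork protection factor, was at 45.0 and 42.9 CPM in cluster 3 against 26.8 and 24.7 in cluster 6 and 2.28 and 2.42 in cluster 5. *Cdc45*, a part of the active helicase, was at 41.7 and 45.2 CPM against 65.4 and 70.0 in cluster 6 and 16.0 and 18.7 in cluster 5. *Dbf4*, which activates the kinase that fires origins, was lower in cluster 3 (28.7 and 30.9 CPM) than in cluster 6 (83.7 and 80.1) and cluster 5 (120 and 124). Of 25 genes for polymerases, the clamp and its loaders, 17 were higher than in the other isthmus clusters (median 1.34), and against cluster 6 none was higher, 1 was lower and 24 were neither (median -0.52). Among the 17 was *Rpa2*, a subunit of the single-strand binding protein, at 101 and 107 CPM against 11.8 and 15.0 in cluster 5. By plate *Pcna* ran from 455 to 553 CPM in pool K and from 424 to 517 CPM in pool T.

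Nucleotide supply had the smallest share of genes higher than in the other isthmus clusters averaged. Only 4 of its 13 genes, among them *Dut*, *Dck* and *Shmt1*, were higher than in the other isthmus clusters (median 0.84), and 4 (*Rrm1*, *Rrm2*, *Tyms* and *Tk1*) were lower than in cluster 6. *Rrm2*, the S-phase subunit of ribonucleotide reductase, was at 100 CPM in both pools of cluster 3 against 381 and 359 in cluster 6, and at 68.2 and 69.1 in cluster 5. *Tk1*, thymidine kinase, was at 120 and 115 CPM, below both cluster 6 (374 and 376) and cluster 5 (208 and 261). Of 13 chromatin assembly genes 9 were higher than in the other isthmus clusters (median 1.37). *Uhrf1*, which brings DNA methylation to newly copied strands, was at 164 and 147 CPM against 161 and 149 in cluster 6, 17.1 and 20.3 in cluster 5 and 6.85 and 5.08 in cluster 11. Of 14 fork repair genes 9 were higher (median 1.67). *Ung*, which removes uracil from DNA, was the one replication gene called higher than in cluster 6, at 87.0 and 78.5 CPM against 22.3 and 24.4, and stood at 1.57 and 1.54 in cluster 5.

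**Figure D2:**
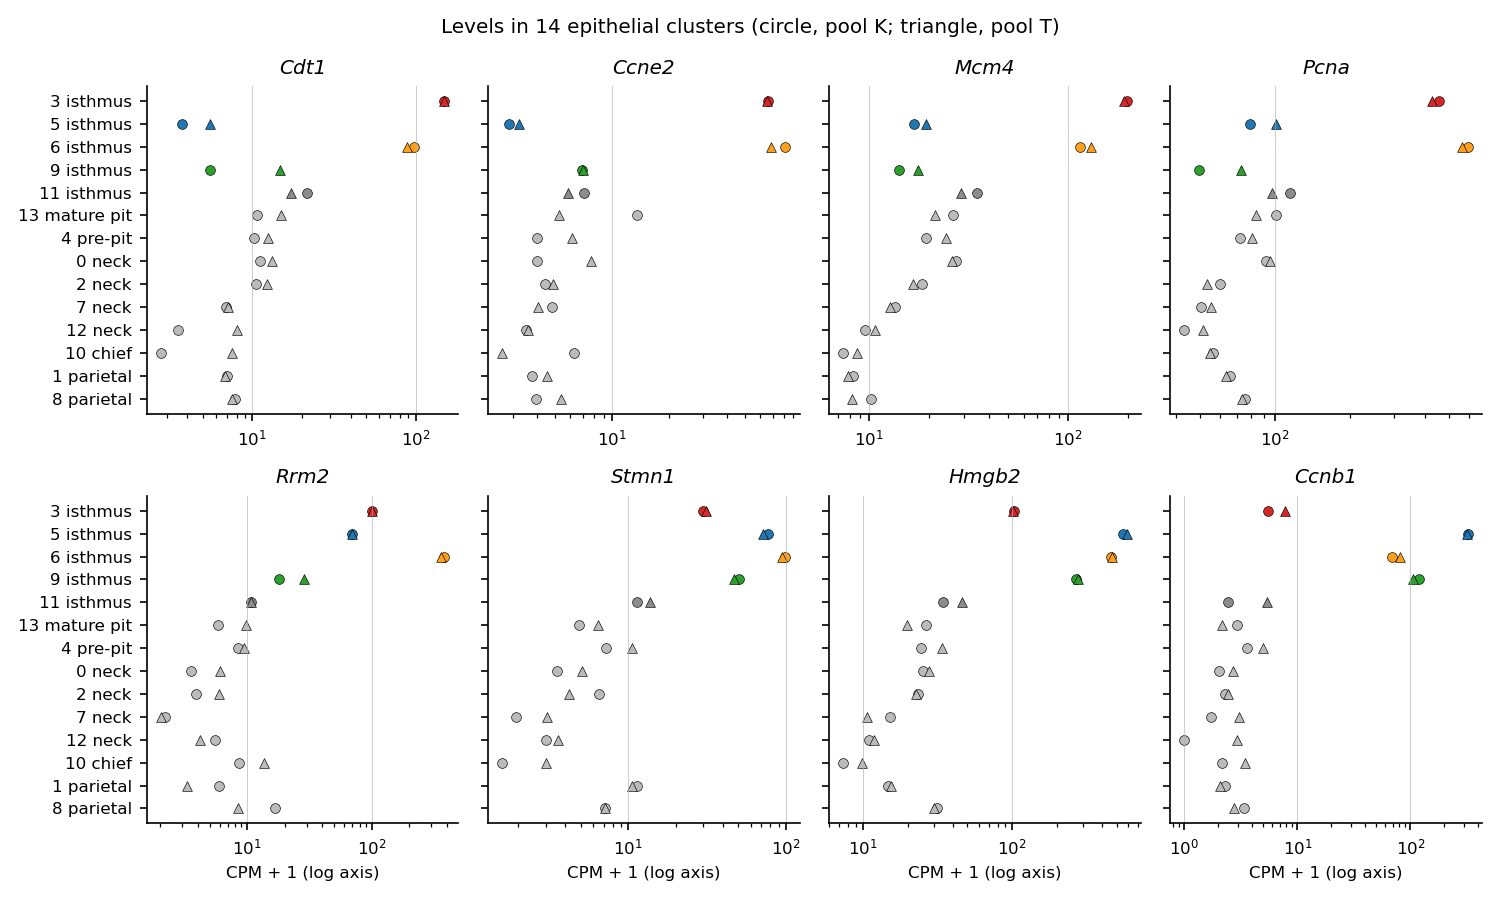
Each panel shows 1 gene, with CPM plus 1 on a log x axis and the 14 epithelial clusters on the y axis. A circle stands for pool K and a triangle for pool T. *Cdt1* and *Mcm4* are highest in cluster 3, *Ccne2*, *Pcna* and *Rrm2* in cluster 6, and *Stmn1*, *Hmgb2* and *Ccnb1* are lower in cluster 3 than in clusters 5, 6 and 9.

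Among the genes that control entry into S phase, both E-type cyclins, *Ccnd1* and *E2f1* were higher than in the other isthmus clusters averaged and *Ccna2* was lower. Of 18 such genes 8 were higher and 1 was lower (median of the list 1.06). *E2f1*, the transcription factor that switches on S-phase genes, was at 42.1 and 49.7 CPM in cluster 3 and 35.9 and 41.2 in cluster 6, and at no more than 2.42 CPM in clusters 5, 9 and 11. *Ccne1* and *Ccne2*, the cyclins that carry cells into S phase, were at 38.2 and 49.7 CPM and at 65.3 and 64.1 CPM. In cluster 6 *Ccne1* was at 60.6 and 59 CPM and *Ccne2* at 80.7 and 67.3 CPM, above cluster 3 but under the threshold. In cluster 5 *Ccne1* was at 0.856 and 2.42 CPM and *Ccne2* at 1.85 and 2.20 CPM. *Ccnd1*, a D-type cyclin, was at 221 and 229 CPM in cluster 3, above the 138 and 138 of cluster 6 and the 85.0 and 81.3 of cluster 5. The other D-type cyclin genes were not called, with *Ccnd2* higher by 0.99 and 1.14 and *Ccnd3* by 0.25 and 0.34 on the log2 scale. *Ccna2*, the cyclin of later S phase and G2, was at 35.8 and 36.8 CPM against 350 and 374 in cluster 6 and 515 and 576 in cluster 5. Against cluster 6 *E2f1* was thus not called and *Ccna2* was lower. Of 6 CDK inhibitor genes tested none was called higher against any other isthmus cluster, and *Cdkn2d* was lower than in the 4 clusters averaged (7.97 and 11.8 CPM against 66.1 and 73.2 in cluster 6). Outside the lists, *Slfn9*, a Schlafen family gene, was higher than in the other isthmus clusters by 2.99 and 3.03 on the log2 scale, with 101 and 97.4 CPM in cluster 3. *Cdca7*, whose protein is a partner of the HELLS chromatin remodeller, was at 77.6 and 81.0 CPM against 3.85 and 3.42 in cluster 5.

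The mitotic genes were the other side of cluster 3. All 28 were lower than in cluster 5 (median -4.27) and all 28 lower than in cluster 6 (median -3.55), and 22 were lower than in cluster 9, where 1.73% of all genes were. *Ccnb1*, mitotic cyclin B, was at 4.48 and 6.79 CPM against 321 and 317 in cluster 5, 67.3 and 80.6 in cluster 6, and 117 and 105 in cluster 9. *Cenpf*, a kinetochore protein, was at 2.52 and 2.21 CPM against 175 and 165 in cluster 5. *Kif2c*, a mitotic kinesin, was at 1.12 and 0.947 CPM against 86.4 in both pools of cluster 5, and *Hmmr*, a spindle protein, at 1.82 and 3.32 CPM against 178 and 183. *Pif1*, a helicase, had 1 and 2 UMIs in the 2 pools of cluster 3 and stood at 55.2 and 49.4 CPM in cluster 5. *Top2a*, the topoisomerase of late S phase and mitosis, was at 68.8 and 66.0 CPM against 3.96 and 7.16 in cluster 11, a difference that was called. *Mki67*, a proliferation marker, was at 37.8 and 40.7 CPM against 12.6 and 29.8 in cluster 11 and was not called. Against cluster 11 13 mitotic genes were higher and *Ccnb2*, a B-type cyclin, was lower (1.55% of all genes were lower). Against the non-isthmus epithelial clusters 22 of 28 were higher and none lower (7.28% of all genes were higher and 2.43% lower).

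**Figure D3:**
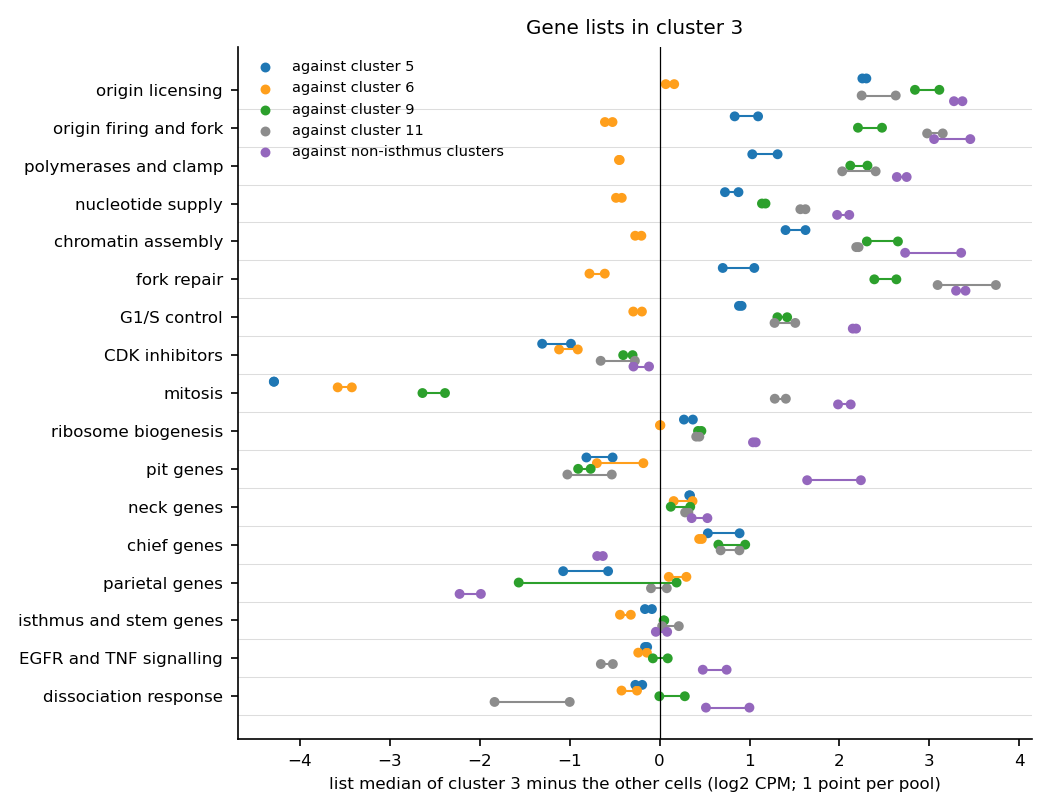
Each row is 1 gene list, with its median log2 difference between cluster 3 and other cells on the x axis and 1 point per pool. Colours show the comparisons, with clusters 5, 6, 9 and 11 and the non-isthmus epithelial clusters. The replication lists lie right of 0 against clusters 5, 9 and 11 and the non-isthmus clusters and near or left of 0 against cluster 6, while the mitotic list lies left of 0 against clusters 5, 6 and 9 and right of 0 against cluster 11 and the non-isthmus clusters.

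The promoters of the higher and the lower genes held E2F and CHR words at different shares. The promoter was taken as 250 bases before to 50 bases after the transcription start of 1 GENCODE M39 transcript a gene on GRCm39, and it was searched on both strands for the E2F words TTTCCCGC, TTTGGCGC, TTTCGCGC and TTTGCCGC, for the CHR words TTTGAA and TTCGAA, and for CCAAT, none of which contains another. An E2F word was in 12% of 332 promoters of genes higher in cluster 3 than in cluster 5, in 3.92% of 357 promoters of genes lower, and in 3.76% of all 12619 promoters. A CHR word was in 11.4% of the promoters of the higher genes, 38.9% of the lower and 16.2% of all. CCAAT was in 38.6%, 58.5% and 39.4%, and in 46.4% of the promoters of genes higher and 65.8% of those lower than in the other isthmus clusters. Of the 15 licensing genes 9 (60.0%) held an E2F word, and of the 28 mitotic genes 17 (60.7%) held a CHR word. CCAAT did not separate these lists, at 11 of 15 (73.3%) and 20 of 28 (71.4%). The words are short letters found in a window and their presence is not evidence of binding. The promoters of *E2f1*, *Cdt1* and *Cdca7* are shown because these genes were among the highest against cluster 5 or the other isthmus clusters and each held an E2F word, which is in capitals. In *E2f1* there are 2 of them, one on each strand, and in *Cdt1* the word lies 39 to 46 bases into the transcript.
E2f1 chr2:154411763-154412062 (− strand): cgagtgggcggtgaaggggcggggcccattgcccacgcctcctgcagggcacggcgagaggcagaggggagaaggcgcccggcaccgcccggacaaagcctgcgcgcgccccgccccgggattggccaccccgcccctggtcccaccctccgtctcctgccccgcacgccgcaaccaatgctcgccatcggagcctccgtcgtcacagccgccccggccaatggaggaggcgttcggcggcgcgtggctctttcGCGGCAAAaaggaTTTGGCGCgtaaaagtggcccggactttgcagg
Cdt1 chr8:123294498-123294797 (+ strand): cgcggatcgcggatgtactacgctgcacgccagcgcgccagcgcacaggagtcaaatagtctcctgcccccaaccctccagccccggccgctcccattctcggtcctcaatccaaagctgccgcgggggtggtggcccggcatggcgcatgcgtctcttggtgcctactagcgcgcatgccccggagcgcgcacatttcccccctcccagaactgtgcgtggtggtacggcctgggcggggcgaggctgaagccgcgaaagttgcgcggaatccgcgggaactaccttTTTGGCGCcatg
Cdca7 chr2:72306091-72306390 (+ strand): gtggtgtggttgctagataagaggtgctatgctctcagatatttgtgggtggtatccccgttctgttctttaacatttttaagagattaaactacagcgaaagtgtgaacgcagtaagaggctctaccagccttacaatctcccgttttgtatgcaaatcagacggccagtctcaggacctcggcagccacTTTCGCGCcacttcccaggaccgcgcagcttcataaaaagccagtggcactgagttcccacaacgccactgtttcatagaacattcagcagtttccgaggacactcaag

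The promoters of *Cenpf* and *Hmmr* are shown as genes among those lowest against cluster 5, with the CHR word in capitals, and both also held CCAAT. In *Cenpf* the word lies 32 to 37 bases into the transcript, and in *Hmmr* 25 to 30 bases into it. By the same search *Ung*, *Ccne1*, *Ccne2* and *Timeless* held no E2F word and *Kif2c* and *Ccnb1* no CHR word in this window.
Cenpf chr1:189420263-189420562 (− strand): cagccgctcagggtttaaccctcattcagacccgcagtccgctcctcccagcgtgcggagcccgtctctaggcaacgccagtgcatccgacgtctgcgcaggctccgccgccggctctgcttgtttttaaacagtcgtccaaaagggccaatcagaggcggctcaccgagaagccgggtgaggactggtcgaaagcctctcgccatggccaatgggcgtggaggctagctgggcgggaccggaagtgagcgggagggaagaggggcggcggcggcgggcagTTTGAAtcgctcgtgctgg
Hmmr chr11:40624231-40624530 (− strand): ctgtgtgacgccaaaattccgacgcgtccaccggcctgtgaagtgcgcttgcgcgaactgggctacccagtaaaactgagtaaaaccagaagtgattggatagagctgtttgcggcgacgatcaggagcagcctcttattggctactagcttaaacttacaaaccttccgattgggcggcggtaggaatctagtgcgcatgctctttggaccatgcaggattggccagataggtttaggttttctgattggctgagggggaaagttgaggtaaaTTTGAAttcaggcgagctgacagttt

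Cluster 6 mixed cells called S (128 of 270) with cells called G2/M, and it was split by these calls, a division chosen after its values were seen. Against the S cells of cluster 6 (52 and 76 cells) none of the 95 replication genes was higher in cluster 3 and 19 were lower, with a median of -0.63, and 27 of the 28 mitotic genes were lower. *Cdt1* was at 199 and 190 CPM in those S cells, *Ccne2* at 176 and 151, and *Rrm2* at 541 and 519, scaled by library size alone. The cluster 3 levels printed above are on another scale, so they cannot be set directly beside these values. Against the G2/M cells (55 and 87 cells) 10 replication genes were higher in cluster 3 (*Orc1*, *Cdc6*, *Cdt1*, *Mcm2*, *Mcm4*, *Timeless*, *Uhrf1*, *Hells*, *Msh6* and *Ung*) and 8 lower. Of the 15 licensing genes 5 were called higher against the G2/M cells (median 0.65) and none against the S cells (median -0.27). Against the whole of cluster 6, 0.658% of all genes were higher and 2.32% lower. Those are not the shares of all genes against its S or G2/M cells alone, which are not given beside these counts. The counts are thus a description without that background. The number of all genes higher than in the G2/M cells alone is printed with the alternatives at the end. The split rests on scores made from the same expression values, so genes that may have entered them were bound to differ between the S and G2/M cells. All cells of cluster 3 were called S from the same scores. Why the S cells of cluster 6 had higher levels of some replication genes than cluster 3 was not tested.

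Within cluster 3 the cells spread along the balance of the 2 scores, and they were put into 3 equal parts of 113 cells by the G2/M score minus the S score, the first part having the lowest. The median S score was 0.591, 0.365 and 0.182 from first to last part. The median G2/M score fell as well, at 0.00898, -0.0842 and -0.118, so the last part was lowest on both scores. The median cell held 35319, 33406 and 30157 UMIs, whose part in the values below was not tested. Genes that may have entered the scores were bound to follow the parts, so the values are a description on a scale of their own. Of 10461 genes 199 were lower in the last part than in the first in both pools by 2-fold or more and 22 were higher. *Uhrf1* went from 332 and 288 CPM to 154 and 163 and then 43.7 and 51.0. *Rrm2* went from 230 and 190 CPM to 71.1 and 111 and then 24.5 and 40.5. *Cdt1* had the flatter course, from 211 and 214 CPM to 176 and 168 and then 103 and 122. *Mcm4* was at 279 and 272 CPM in the first part and 142 and 152 in the last. By list, 3 of 15 licensing genes were lower in the last part (median -0.92) against 9 of 14 fork repair genes (median -2.16), 8 of 15 fork start genes (-1.23) and 7 of 13 nucleotide genes (-1.13). Of the 25 mitotic genes tested here 11 were lower in the last part (-1.56), and none was higher.

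Among the largest falls over the parts were those of *Lrr1*, a replisome disassembly factor, from 39.4 and 27.9 CPM to 2.33 and 2, of the histone chaperone gene *Asf1b*, from 101 in both pools to 9.90 and 14.5, of *Mybl2*, from 21.0 and 21.1 to 1.75 and 2.50, and of *Zgrf1*, from 19.7 and 21.1 to 2.33 and 2.50. The largest rises were in the histone gene *H2bc4*, from 15.6 and 68.1 CPM to 70.5 and 193, in *Gkn3*, from 6.86 and 8.77 to 20.4 and 27, in *Kdm5b*, a histone demethylase, from 11.4 and 7.74 to 26.8 and 27.5, in *Tcp11l2*, from 4.12 and 9.80 to 33.8 and 23.0, and in *Lrrc31*, from 8.69 and 9.28 to 23.9 and 21.0. *Ccnd2*, a cyclin of G1, was at 314 and 333 CPM in the first part and 419 and 406 in the last, and *Myc* at 84.6 and 91.3 and then 119 and 134. Both were under the 2-fold mark. The endocrine gene *Ghrl* was higher in the last part, at 78.7 and 49.5 CPM against 35.7 and 22.7 in the first.

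**Figure D4:**
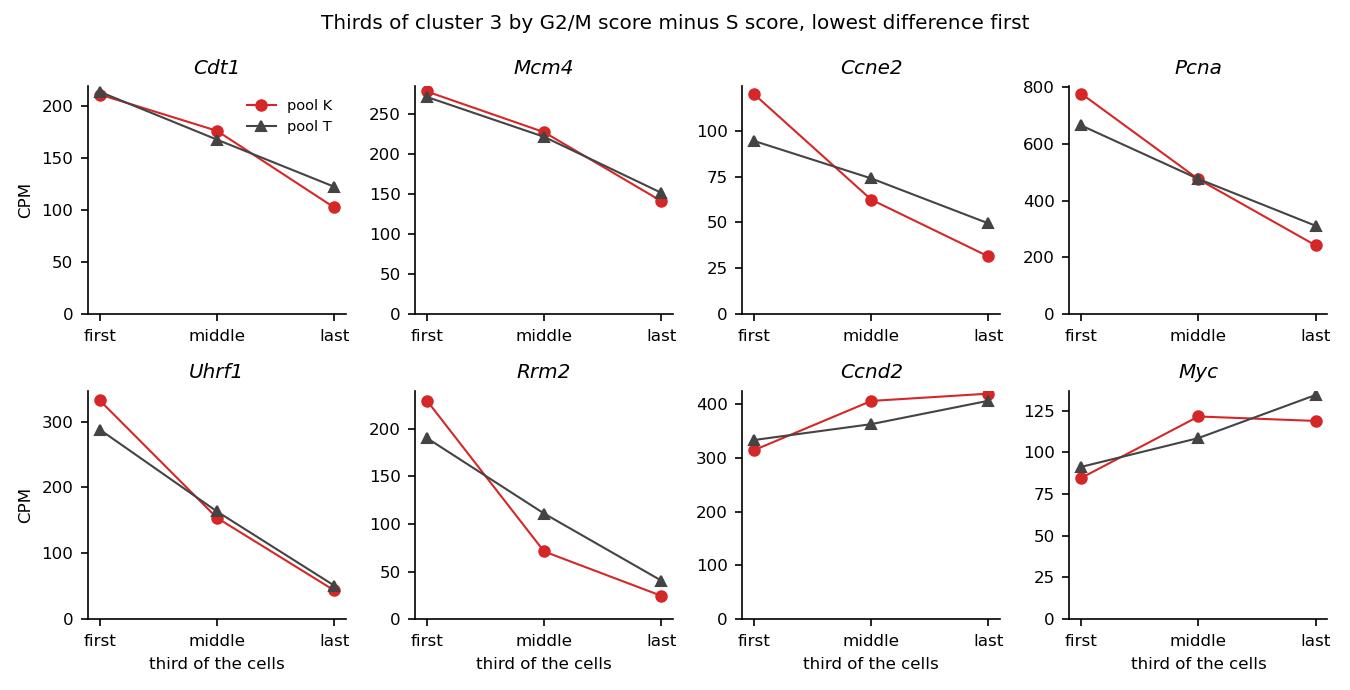
Each panel shows 1 gene in the first, middle and last part of cluster 3 (113 cells each, ordered by the G2/M score minus the S score), in CPM on the y axis, with 1 line per pool. *Uhrf1*, *Rrm2* and *Pcna* fall over the parts in both pools, *Cdt1* and *Mcm4* fall less, and *Ccnd2* and *Myc* end above their level in the first part.

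Against cluster 11, whose cells were mostly called G1, the 6 largest falls in cluster 3 were in *Cym*, *Onecut2*, *Krt20*, *AA467197*, *Sprr1a* and *S100a14*. Of the 8 pit genes *Basp1* and *Aqp3* were lower and 6 were neither. The call of *Aqp3* rests on few UMIs, 2 and 3 in cluster 3 against 4 and 8 in cluster 11. *Cym* stood at 32.4 and 445 CPM in cluster 11 with at most 2 UMIs in either pool of cluster 3, and *Onecut2*, a transcription factor, at 25.6 and 18.7 CPM with at most 1 UMI. *Sprr1a*, a cornified envelope gene also made in stressed epithelium, was at 1.82 and 5.37 CPM against 71.7 and 43.9. *Krt20*, a keratin of mature surface cells, was at 0.280 and 0.631 CPM against 38.6 and 25, again on few UMIs in cluster 3. *Areg*, an EGF receptor ligand, was lower at 5.6 and 10.9 CPM against 47.2 and 26.8, the one of 10 signalling genes that was called. Of 13 immediate early and heat shock genes, which also respond to tissue dissociation, 6 were lower than in cluster 11 (median -1.34), for example *Atf3* at 165 and 329 CPM against 1070 and 890. Whether the dissociation had a part in these differences was not tested. *Bard1* and *Lrr1*, both replication genes, had at most 2 UMIs in either pool of cluster 11 and stood at 19.3 and 12.9 and at 16.8 and 15.5 CPM in cluster 3.

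Against the 9 non-isthmus epithelial clusters averaged, 87 of the 95 replication genes were higher and none lower (median 2.83), and 8 were neither. The mean levels printed beside it are arithmetic, so a few clusters with high levels can carry them, and the log2 differences are smaller where they do. *Uhrf1* was higher by 6.46 and 5.98 on the log2 scale, at 164 and 147 CPM against a mean of 1.64 and 2.48. *Clspn*, the checkpoint mediator claspin, was at 32.2 and 29.5 CPM against 0.535 and 0.481, and *Dtl*, which marks CDT1 for destruction, at 94.4 and 85.7 against 2.29 and 2.05. Of 13 genes of ribosome biogenesis 7 were higher (median 1.12), and none was called against the other isthmus clusters. The scaling mattered here. With library size scaling in place of TMM normalisation the count over all genes went from 941 higher and 314 lower to 1526 higher and 171 lower and the median of all genes moved from -0.031 to 0.29. Among the lowest genes in cluster 3 were *Nupr1*, a stress-response regulator, at 2.10 and 3.32 CPM against 550 and 632 (log2 difference -3.29 and -3.56), *Furin*, a proprotein convertase, at 31.3 and 22.7 against 1426 and 1702 (-2.47 and -3.09), and *Kcne2*, a potassium channel subunit of parietal cells, at 7.41 and 7.42 against 292 and 286 (-2.76 and -2.43). *Lpl*, a lipase, was at 13.3 and 10.9 CPM against 695 and 644 (-2.64 and -2.75).

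Among lineage genes the neck mucin gene *Muc6* was higher and the pit gene *Basp1* lower in cluster 3 than in the other isthmus clusters averaged, and none of 4 chief cell genes was called. *Muc6*, the mucin of neck cells, was at 344 and 408 CPM, against 265 and 309 in cluster 6, 160 and 138 in cluster 5, 120 and 85.9 in cluster 9 and 73.2 and 107 in cluster 11. It was the 1 of 5 neck genes called higher than in the other isthmus clusters averaged, and the difference from cluster 6 alone was under the threshold. *Pgc*, the pepsinogen C gene, was the highest of the isthmus clusters in cluster 3 at 57174 and 54416 CPM, against 36979 and 38209 in cluster 6 and 33064 and 29480 in cluster 11, a difference of 0.75 on the log2 scale that was under the threshold. *Gkn2*, a gastrokine of pit cells, was at 6463 and 4540 CPM against 15008 and 12911 in cluster 9, where the log2 difference was called (-1.29 and -1.55, from scaling factors set over the filtered genes, unlike the CPM). *Basp1* was the one pit gene of 8 called lower than in the other isthmus clusters, at 93.3 and 78.9 CPM against 212 and 194 in cluster 5. *Muc5ac*, the pit mucin, was not called, at 1885 and 1262 CPM. By plate *Muc6* ran from 242 to 476 CPM in pool K and from 381 to 631 in pool T, and *Gkn2* from 4738 to 14902 and from 3170 to 6834, so both spread widely and the pools overlapped.

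At the level of single cells the mucins overlapped. A cell counted as carrying a mucin when its level passed the one that 95% of parietal cells stayed under, to set aside the level that free RNA can give. In cluster 3 187 of 339 cells carried *Muc5ac* (55.2%, 95% Wilson interval 49.8 to 60.4), 215 carried *Muc6* (63.4%, 58.2 to 68.4), and 72 carried both (21.2%, 17.2 to 25.9). The *Muc6* share was 46.2% in cluster 5, 50.4% in cluster 6, 39.4% in cluster 9 and 40.2% in cluster 11. The share with both was 12.9% to 20.2% in those clusters and 0.285% in parietal cells, where each mucin alone was carried by 5.13%, as the threshold sets it. With each cell thinned to 10000 UMIs (335 cells, 4 left out as shallower) 46.6% carried *Muc6*, 51.0% *Muc5ac* and 9.85% both, and the *Muc6* share in the others was 31.9%, 42.8%, 27.1% and 21.9%. At this equal depth the *Muc6* shares of clusters 3 and 6 lay close together, and the share with both was 6.18% to 8.72% in the other isthmus clusters. The intervals cover counting error only.

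Dataset 1, from other mice, held 53 cycling corpus and antrum cells in which the calls could be set beside the genes of cluster 3. These formed 1 cluster, with 6 and 13 cells called S and 16 and 18 called G2/M in its 2 pools, and the median S cell held 55298 and 49604 UMIs against 63118 and 65588 in G2/M cells. Of the 339 genes higher in cluster 3 than in cluster 5, 169 could be tested in dataset 1. Of these 169, 157 (92.9%) were higher in S than in G2/M cells in both pools, against 26.5% of all 8584 genes tested in both datasets. Of the 361 genes that were lower, 256 could be tested, and 232 of these (90.6%) were lower in S cells in both pools, against 34.1% of all. The shares do not cover the called genes that could not be tested. *Cdt1* was at 172 and 156 CPM in the S cells and 5.97 and 14.6 in the G2/M cells of the 2 pools. *Mcm4* was at 188 and 187 CPM against 28.8 and 20.4, and *Ccnb1* at 15.6 and 16.9 against 247 and 193. *Muc6* was at 357 and 90.5 CPM in S cells against 87.5 and 107 in G2/M cells, so its difference had no common direction. The phase calls rest on expression, and genes that may have entered the scores were bound to differ.

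Between the pools, 103 genes differed in cluster 3, among them 6 immediate early and heat shock genes and no gene of the replication lists. In the edgeR quasi-likelihood test over 12 plates, these 103 of 9029 genes passed a Benjamini-Hochberg adjusted p threshold of 0.05, 36 higher in pool K (0.399%) and 67 higher in pool T (0.742%), and 1055 were under 0.05 unadjusted. The count was 50 without plate 4 of pool T, 60, 63 and 65 without plates 5, 2 and 6 of pool K, and 171 without plate 1 of pool K. The median differences of the 6 replication lists lay between 0.050 and 0.13 on the log2 scale. *Rhob*, a small GTPase gene, was at 64.9, 74.7 and 104 CPM in pool K (lowest, median and highest plate) and at 189, 219 and 237 CPM in pool T, with no overlap (log2 difference of K minus T -1.47, SE 0.0920, edgeR adjusted p = 7.11e-11). *Tfrc*, the transferrin receptor gene, ran from 240 to 328 CPM in pool K and from 456 to 772 in pool T (-1.08, edgeR adjusted p = 1.38e-07). *Ccn1*, a matricellular protein gene, ran from 41.6 to 161 CPM in pool K and from 192 to 537 in pool T (-1.93, edgeR adjusted p = 1.01e-05). *Erdr1* was counted 16 times in pool K and 170 times in pool T, and *Gm47283* was higher in pool T by 1.03 on the log2 scale (edgeR adjusted p = 3.38e-06). *Jun*, an immediate early transcription factor gene, ran from 199 to 386 CPM in pool K and from 429 to 789 in pool T (-1.12, edgeR adjusted p = 1.39e-05). Of the 13 dissociation genes 6 (*Jun*, *Egr1*, *Ier2*, *Dusp1*, *Hspa1a* and *Hspa1b*) were higher in pool T and all 13 differences had that sign (median -0.65). The calls of *Egr1* and *Dusp1* were lost in 8 and 7 of 15 alternatives (adjusted p up to 0.170 and 0.163). *Hspa1a* and *Hspa1b* are near-identical copies, so reads may be split between them.

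In the other direction, *Slc12a2*, a sodium-potassium-chloride cotransporter gene, ran from 397 to 511 CPM in pool K and from 288 to 362 in pool T (0.51, SE 0.0676, edgeR adjusted p = 5.02e-05). *Txnip*, whose protein binds thioredoxin, ran from 454 to 542 CPM in pool K and from 324 to 395 in pool T (0.46, SE 0.0667, edgeR adjusted p = 0.000197). *Ppp2r1b*, *Slc1a3* and *Ces1f* followed with log2 differences of 0.74, 0.53 and 1.00. *G530011O06Rik* had 238 UMIs over the cells of pool K and none over those of pool T, so it was at least 70.5-fold higher in pool K (37.6 CPM against the 0.534 CPM that 3 UMIs over the pool would give). *Muc5ac* was higher in pool K, from 1484 to 2523 CPM by plate against 898 to 1762, which overlap (0.53, edgeR adjusted p = 0.0274), and it lost the call in 7 of 15 alternatives (adjusted p up to 0.112). The mice, the operator and the preparation differ together between the pools and cannot be told apart, and plates of a pool measure technical spread only.

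For 2 genes the pool difference itself differed between cluster 3 and its neighbours. In a test of the pool difference in cluster 3 against that in the other isthmus clusters together, with the plate as a block because both sums of a plate share it, 2 of 10175 genes passed and 478 were under 0.05 unadjusted. *Txnip* was one. The levels of both genes are given here scaled by library size alone where no other scale is named. Its median was 498 CPM in pool K and 366 in pool T in cluster 3, and 393 and 412 in the other isthmus clusters (difference 0.53, SE 0.0837, edgeR adjusted p = 0.00982). Those clusters did not all go the same way. On the scale set over the isthmus plates the *Txnip* median was 499 and 407 CPM in cluster 9, higher in pool K as in cluster 3. It was 479 and 629 in cluster 11, 350 and 359 in cluster 5 and 352 and 391 in cluster 6. *Id2*, an inhibitor of helix-loop-helix transcription factors, was the other, at 401 and 392 CPM in cluster 3 and 412 and 556 in the others (0.42, SE 0.0763, edgeR adjusted p = 0.0464), and it lost the call in 10 of 15 alternatives (adjusted p up to 0.211).

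**Figure D5:**
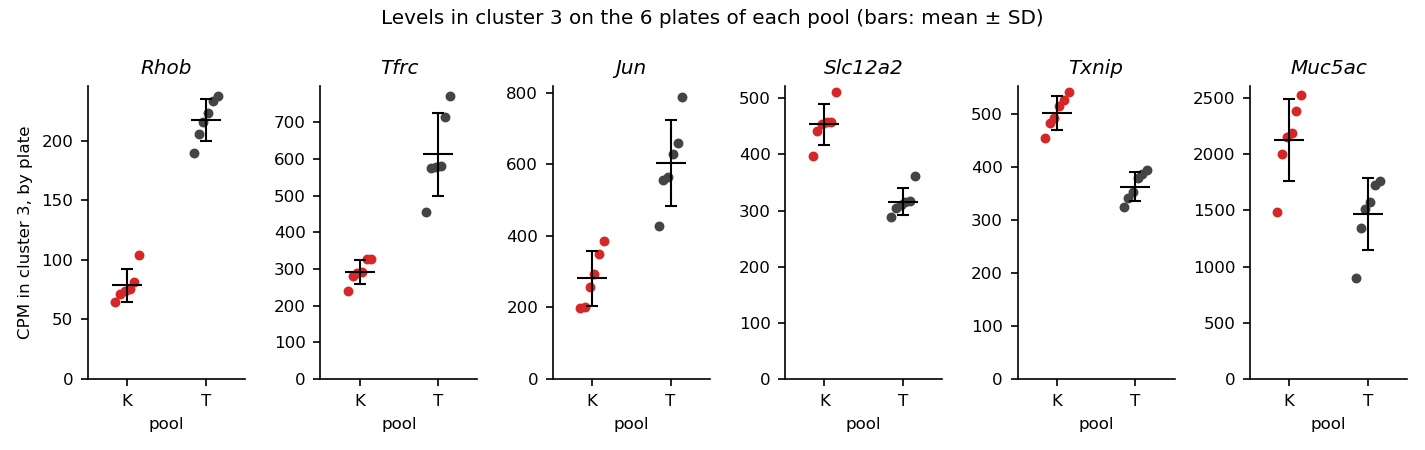
Each panel shows 1 gene in the 12 plates of cluster 3, in CPM on the y axis with 1 point per plate and the mean with its SD per pool (6 plates each). *Rhob*, *Tfrc* and *Jun* are higher in pool T and *Slc12a2* and *Txnip* in pool K with no overlap, and *Muc5ac* is higher in pool K with overlap.

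The share of isthmus cells that fell in cluster 3 was larger in pool K. It was 31.9% ± 5.4 (SD, n = 6 plates) in pool K and 22.3% ± 3.54 (n = 6) in pool T, a difference of 9.60 points (exact two-sided permutation test over 924 splits, p = 0.00433, adjusted over 2 shares 0.00866). The plates overlapped, from 26.1% to 41.3% and from 18.6% to 27.3%. As a share of all kept cells the difference was 1.33 points, 9.19% ± 1.18 against 7.85% ± 1.73 (exact permutation p = 0.143, adjusted p = 0.143). The plates of a pool share their mice, so these p-values speak of plates and not of animals.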

How the data were processed

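Cells were sorted into 384-well plates and measured by Quartz-Seq2. The authors made the deposited tables of whole UMI counts per gene and well with STAR, Drop-seq tools and the FASTX-Toolkit, aligned to GRCm39 and its Gencode M27 models, and bcl2fastq 2.20.0.422 is named in the submitters' processing notes. The authors kept wells with at least 2500 detected genes and clustered them with Seurat. The cluster of a cell, its pool and plate, its S and G2/M score and the phase called from them, and its percent of mitochondrial UMIs were taken from the annotation the authors deposited. Which genes entered each score is not given in the sources used here. Each of the 3993 annotated cells of dataset 2 and 491 of dataset 1 was matched to a well whose total and detected genes were equal. Tables that hold all kept cells together were not used. Doublets were limited by the sort gate alone and no doublet caller was run.

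UMIs were summed per cluster and pool (28 sums of 14 epithelial clusters) or per plate, and scaled with TMM in edgeR 4.0.16 (R 4.3.3). Log2 CPM used a prior count of 2. The printed CPM of clusters were scaled over all genes with a UMI and the log2 differences over the filtered genes, so the ratio of 2 printed levels can differ slightly from the printed difference. Cluster 3 was set against each cluster, or against several averaged on the log2 scale, and a gene was called where it differed by at least 1 in both pools. CPM values scaled over clusters, over the plates of cluster 3, over the isthmus plates, over the 3 parts of cluster 3 and by library size (cluster 6 by phase, dataset 1, and the levels printed with the test of the pool difference between clusters) are on different scales. Pool K and pool T were compared within cluster 3 with the edgeR quasi-likelihood test over 12 plates and Benjamini-Hochberg adjustment over all genes tested. The pool difference in cluster 3 was set against that in the other isthmus clusters in 1 model with the plate as a block. Shares of cells were compared with an exact permutation test. On simulated data the pool test called 96 of 100 genes changed 2-fold, 100 of 100 changed 4-fold and 12 of 8829 unchanged genes. Promoters came from GENCODE M39, a later release than the files', so starts may differ.

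The members, the gene lists and the tests were chosen with earlier results of these data known. Named genes were all list members and, in the comparisons with the other isthmus, cluster 5, cluster 11 and non-isthmus cells, the 6 largest rises and falls counted 30 times or more in each pool on the higher side, the 6 smallest adjusted p-values of each direction between pools, and the 5 largest rises and falls over the parts of cluster 3. Not all of them are printed, and a few items withheld for evaluation are not reported here. Alternatives were other scalings (RLE, library size, mean of cells), no filter, a minimum of 4000 genes per cell, DESeq2 1.42.0, each pool alone, and each plate left out. Splitting cluster 6 by phase was added after the data were seen.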

Additional observations from a re-analysis of the deposited data

Results flagged for a closer look

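Of 66 groups of 6 plates in cluster 3, 3 had a plate far from the others, where chance flags about 1 in 20 groups. *Id2* was at 341 CPM in its lowest plate of pool K. *Muc6* reached 631 CPM in 1 plate of pool T, where the other plates lay between 381 and 449 CPM. *Gkn2* reached 14902 CPM in 1 plate of pool K, where the others lay between 4738 and 6896 CPM. The pool difference in cluster 3 differed from that in the other isthmus clusters together, by a test of the difference itself, for *Txnip* (0.53 on the log2 scale) and for *Id2* (0.42).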

How the results depend on the processing

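With each pool alone, where the call no longer needs both pools, the counts of genes were larger: 340 to 417 higher and 272 to 274 lower than in the other isthmus clusters, 1175 to 1184 higher and 538 to 570 lower than in the non-isthmus clusters, 641 to 643 and 519 to 552 against cluster 5, 229 to 354 and 438 to 465 against cluster 6, 931 to 1033 and 396 to 535 against cluster 9, and 757 to 1017 and 511 to 614 against cluster 11. Against the non-isthmus clusters, 1526 were higher and 171 lower by library size, and 1500 and 162 by the mean of cells, where the median of all genes was 0.29 and 0.30. Against the cells of cluster 6 called G2/M 243 genes were higher. No list median of at least 1 in size on the log2 scale and no called single gene changed sign in the cluster comparisons. Changes of sign among smaller or uncalled differences were not counted, and there were some. The parietal list against cluster 9, for example, had a median of -0.69, and of 0.19 in pool T alone. Of the genes named over the parts, *Kcne2* turned to 0.38 when the cells were put into 2 equal parts.

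The pool test called 235 genes with no filter, 67 with DESeq2 and 50 to 171 with a plate left out. The test of the pool difference between clusters called 35 with no filter, 1 with DESeq2 and 1 to 11 with a plate left out, 11 of them without plate 1 of pool K. The share of isthmus cells differed by 7.74 to 10.8 points with a plate left out, and the share of kept cells by 0.87 to 1.81, the last without plate 4 of pool T (exact permutation, adjusted p = 0.0476). With at least 1 UMI as the threshold 73.2% of cells carried *Muc5ac*, 80.2% *Muc6*, 53.7% both and 0.295% neither, and thinned to 10000 UMIs 46.6% carried *Muc6*, 9.85% both and 12.2% neither. In the shorter window from 100 bases before the start, E2F words were in 8.73% of promoters of genes higher than in cluster 5 and 2.09% of all, CHR words in 4.52% of the higher, 26.1% of the lower and 6.36% of all, and CCAAT in 29.8%, 47.9% and 27.2%. For genes higher and lower than in the other isthmus clusters, E2F words were in 13.4% of the higher, CHR words in 5.26% and 30.9%, and CCAAT in 38.3% and 55.7%. The causes of these changes were not tested, apart from fewer bases searched in the shorter window. No paired analysis was possible because plates of the 2 pools share only a number given in accession order; the test of the pool difference between clusters did keep each plate as a block.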
